A study of Mus musculus with 12 samples.

Results

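Transcription factors of the incisor's epithelial stem cells and their descendants were followed in colonies grown from that epithelium: Sox2, Sox9, Isl1 and Tbx1 of the stem and progenitor compartment, Pitx1 and Trp63 of dental and basal epithelial identity, and Sox21, Dlx3 and Msx2 of the lineage that makes ameloblasts. They were chosen by name, as every non-control array probe whose accession maps to 1 of these 9 symbols, which gave 12 probes of 41174 and 9 genes of the 31064 tested. All 12 probes passed the filter on low signal. RNA came from 12 mouse colonies on 12 one-colour Agilent arrays, 4 single colonies for each of 3 genotypes, all on a mixed genetic background: WT (wild type), Bmi1- (here Bmi1 null) and Bmi1-;Ink4a/Arf- (here double null), which lacks the Ink4a/Arf locus as well. The mutant colonies thus share the loss of Bmi1, and the double null ones add the loss of Cdkn2a, the gene of that locus. Each colony had been derived from the labial cervical loop and cultured in 2 dimensions, and the number of animals, their age and the targeting of the alleles are not given in the sources used here. The p-values therefore measure the spread between colonies, and in such bulk samples fewer cells of a kind and less RNA per cell cannot be told apart. A level is the log2 signal of a probe minus the 75th percentile of its array, so levels compare a probe between colonies and not one gene with another.

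The labial cervical loop lies at the base of the mouse incisor, a tooth that grows throughout life because epithelial stem cells there keep producing ameloblasts, the cells that secrete enamel. Sox2 marks these stem cells, and Sox9, Isl1 and Tbx1 are further regulators of incisor epithelium at or near that stage. Pitx1 is a bicoid-type homeodomain factor of early dental epithelium, and Trp63 encodes p63, the factor on which stratified epithelia depend. Sox21, a repressor related to Sox2, and the homeodomain factors Dlx3 and Msx2 act along the ameloblast lineage. Bmi1 is a subunit of Polycomb repressive complex PRC1, which keeps many developmental regulators and the Ink4a/Arf locus silent.

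The sequences just upstream of 4 of these genes are shown because Sox2 and Isl1 rose in both mutants while Sox21 and Msx2 differed between the mutants in opposite directions. Each is the 250 bases before the start of the gene, 5′ to 3′ on the gene's own strand, from RefSeq on GRCm38.p6. Capitals mark matches, on either strand, to 4 short motifs: TAATT (homeodomain core), TAATCC (bicoid-type core of PITX factors), ACAAAG or ACAATG (SOX core) and GTGTGA (T-box core).
Sox2: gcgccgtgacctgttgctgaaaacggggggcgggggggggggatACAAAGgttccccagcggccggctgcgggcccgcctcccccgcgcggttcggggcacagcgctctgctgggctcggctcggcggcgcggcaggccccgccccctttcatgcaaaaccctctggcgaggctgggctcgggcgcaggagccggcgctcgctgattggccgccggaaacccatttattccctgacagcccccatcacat
Isl1: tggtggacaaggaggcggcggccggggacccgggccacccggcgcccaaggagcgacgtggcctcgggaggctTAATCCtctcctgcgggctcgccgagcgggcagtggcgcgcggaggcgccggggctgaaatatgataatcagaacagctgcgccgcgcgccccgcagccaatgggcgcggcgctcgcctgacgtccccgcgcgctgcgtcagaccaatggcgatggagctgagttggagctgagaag
Sox21: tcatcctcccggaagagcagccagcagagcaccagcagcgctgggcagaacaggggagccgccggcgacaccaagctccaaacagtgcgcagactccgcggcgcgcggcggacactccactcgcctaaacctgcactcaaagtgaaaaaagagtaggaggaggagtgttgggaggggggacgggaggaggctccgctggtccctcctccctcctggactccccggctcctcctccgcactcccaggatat
Msx2: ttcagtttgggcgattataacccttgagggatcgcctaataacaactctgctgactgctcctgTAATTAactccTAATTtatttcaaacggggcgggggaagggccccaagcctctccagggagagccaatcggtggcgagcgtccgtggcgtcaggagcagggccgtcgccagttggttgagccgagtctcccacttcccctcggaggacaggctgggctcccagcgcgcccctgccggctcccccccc
The Sox2 stretch, chr3:34649745-34649994 on the plus strand, held 1 SOX core, at position -206 from the start. The Isl1 stretch, chr13:116309689-116309938 on the minus strand, held 1 PITX-type core, at position -177. The Sox21 stretch, chr14:118237031-118237280 on the minus strand, held none of the 4 motifs. The Msx2 stretch, chr13:53472781-53473030 on the minus strand, held 3 matches to the homeodomain core, of which 2 overlap because TAATTA reads the same on both strands. Over all 32851 upstream stretches of this length, 25.03% held the homeodomain core, 6.25% the PITX-type core, 25.2% the SOX core and 12.3% the T-box core. The Sox2 and Isl1 stretches had 27 and 33 CpG dinucleotides and those of Sox21 and Msx2 17 and 16, against a median of 6 over all stretches. RefSeq matched 5 of the 9 genes (6 stretches), and both stretches of Tbx1 held none of the motifs. Sox9, Pitx1, Dlx3 and Trp63 were not matched.

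The labels were checked on the targeted genes first. By its brighter probe, Bmi1 stood at -0.27 ± 0.46 (SD, n = 4) in wild type. It stood at -2.36 ± 0.15 in the Bmi1 null and -2.52 ± 0.21 in the double null colonies, well above background on every array. Relative to the median change of all genes that is -0.85 and -0.86. The second probe changed by -4.13 and -3.94. It was well above background on 4 of 4 wild-type arrays and 1 of 4 arrays of each mutant. The sources used here do not say where the 2 probes lie relative to the deleted part. Cdkn2a signal exceeded background clearly on all 4 Bmi1 null arrays and on none of the 8 others, and its fall from Bmi1 null to double null colonies was at least 2.70-fold. The epithelial label was checked on 15 general epithelial markers, all well above background on each array. On the wild-type arrays all 11 immune and 10 endothelial markers tested were so too, and detection there does not set cell types apart. The summed level of the epithelial markers (log2 of the summed scaled signals) was 7.30 to 8.75 in wild type. It was 9.01 to 9.47 in the Bmi1 null and 9.10 to 9.94 in the double null colonies. The wild-type arrays stood apart from the mutant ones: the interquartile range of their log2 signals was 2.56 ± 0.06 (SD, n = 4), against 4.52 ± 0.18 and 4.66 ± 0.42. Spots of olfactory receptor genes, which serve odour detection, stood well above background in 98.4% of cases in wild type, 65.3% in the Bmi1 null and 58.9% in the double null colonies. All 11 immune cell markers tested were lower in both mutants, with a summed level of 3.50 to 3.83 in wild type, 0.36 to 0.71 in the Bmi1 null and 0.10 to 0.97 in the double null colonies. Over all genes 58.3% and 59.7% were lower. In the main scaling 9 of 10 endothelial markers were lower and 1 higher in each mutant. Of 10 neural, glial and melanocyte markers, 10 and 9 were lower and 0 higher. The median log2 change of all genes against wild type was -1.24 in the Bmi1 null and -1.39 in the double null colonies, so changes against wild type are also given relative to that median. The part that these differences play in the comparisons with wild type was not tested, and both of those comparisons share the same 4 wild-type arrays.

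In Bmi1 null against wild-type colonies, 8 of the 9 factors were higher and 1, Sox21, was lower. The background is high: limma called 83.5% of all genes, 25.2% higher and 58.3% lower, at an adjusted p under 0.05. The 4 arrays of one genotype lay wholly apart from the 4 of the other for all 9 factors, and for 80.1% of all genes, 23.8% higher and 56.3% lower. In double null against wild-type colonies, 5 factors (Sox2, Sox9, Isl1, Tbx1 and Trp63) were higher and 4 were not called, where 85.4% of all genes were called, 25.7% higher and 59.7% lower. Those 5 were also the ones whose arrays did not overlap, which held for 81.3% of all genes, 24.7% higher and 56.6% lower. The median change of the 9 factors, set against that of all genes, was 2.81 in the Bmi1 null and 2.84 in the double null colonies, with all 9 factors above that median in both. Under the 4 other scalings it was 1.59 to 2.81 and 1.48 to 2.84, and under some settings Sox21 (as low as -0.59) lay below the median of all genes in the Bmi1 null colonies and Msx2 (-0.21) and Dlx3 (-0.10) in the double null colonies. Between the mutants, 3 factors were called, Sox21 higher and Dlx3 and Msx2 lower in double null colonies, where 7.43% of all genes were called, 2.81% higher and 4.62% lower. The mutant arrays did not overlap for those 3 factors and for 13.8% of all genes, 6.6% higher and 7.18% lower. Scaling moved the split of all calls: genes called higher made up 30.2% and 30.1% of the calls against wild type in the main scaling, 46.9% and 45.8% with median scaling, 47.5% in both with quantile normalization, and 46.7% and 46.8% with the authors' deposited values. Between the mutants that share was 37.8%, and 56.7% with normexp correction. The count of factors called in double null against wild-type colonies was 9 with quantile normalization and 8 with the authors' deposited values, all higher. The other 6 factors differed between the mutants by -0.73 to 0.33 on the log2 scale, none of them called.

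**Figure D1:**
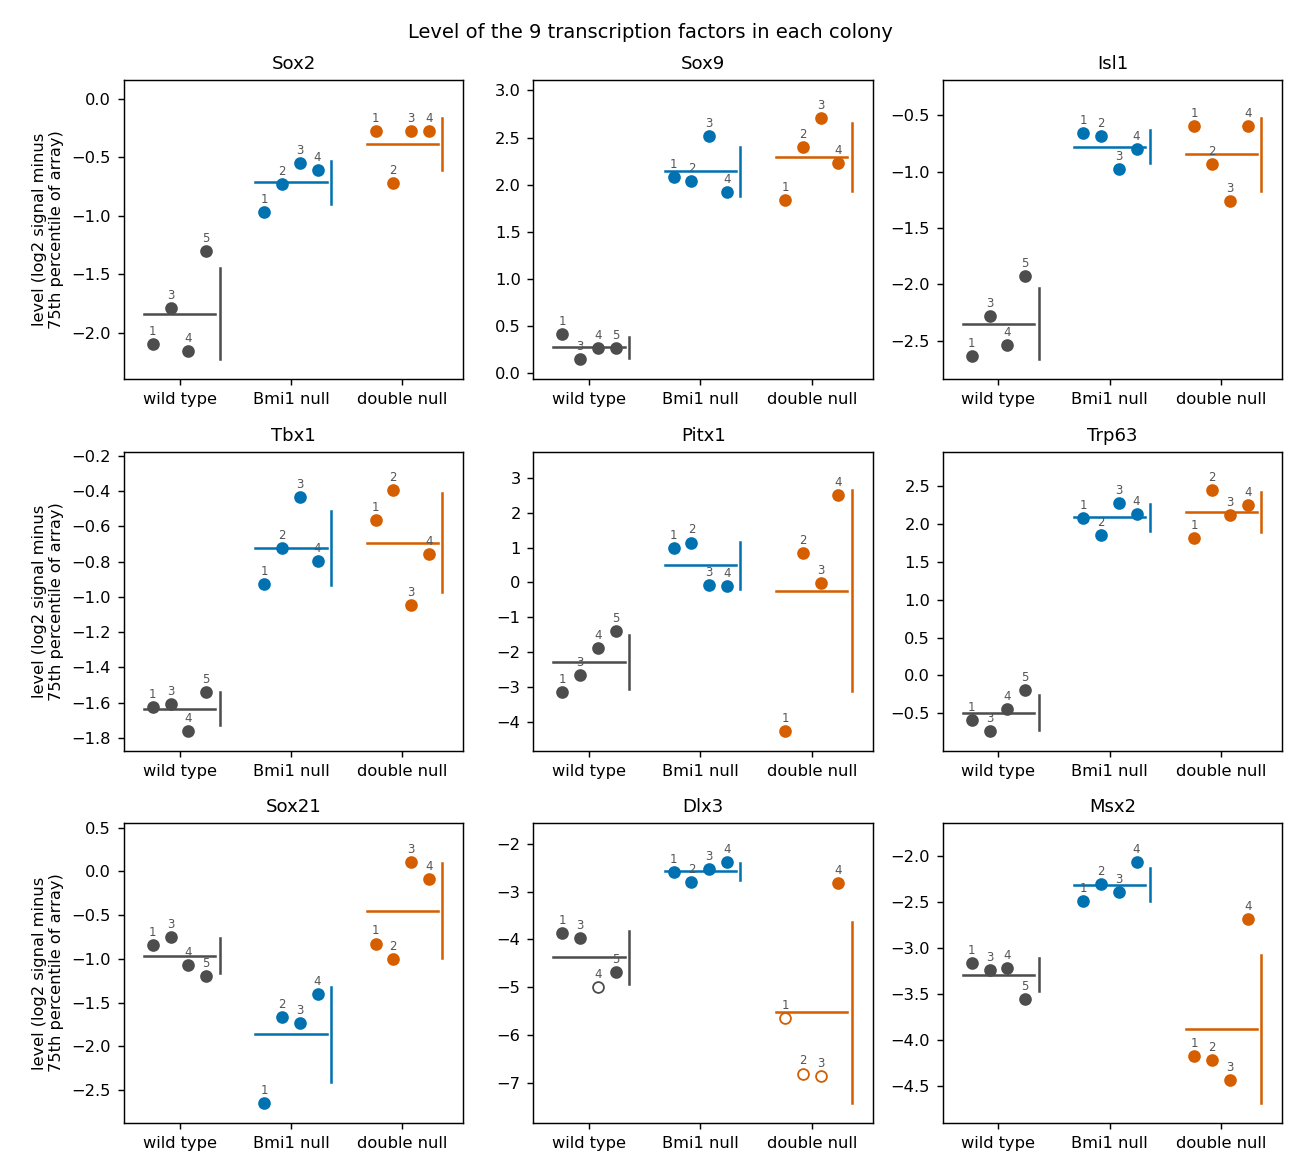
Level of each of the 9 factors (log2 signal less the array's 75th percentile, vertical axis) in the 12 colonies, by genotype. Points are colonies with their replicate numbers, open if not well above background; horizontal lines are means and vertical bars 1 SD (n = 4). Sox2, Sox9, Isl1, Tbx1 and Trp63 are higher in both mutants, while Dlx3 and Msx2 are high in the Bmi1 null colonies and in 1 double null colony, replicate 4.

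The 4 stem and progenitor factors were higher in both mutants, by 0.91 to 2.02 on the log2 scale, and none was called between the mutants. Sox2, a high-mobility-group factor that marks the incisor's epithelial stem cells, stood at -2.10, -1.79, -2.16 and -1.30 in wild-type replicates 1, 3, 4 and 5, at -0.97, -0.73, -0.55 and -0.61 in Bmi1 null replicates 1 to 4, and at -0.28, -0.72, -0.28 and -0.28 in double null replicates 1 to 4. The 4 wild-type colonies were the lowest and the mutants overlapped, with double null replicate 2 at the level of Bmi1 null replicate 2. Sox2 rose by 1.12 ± 0.22 (SE, limma adjusted p = 0.000424) in the Bmi1 null and by 1.45 ± 0.22 (adjusted p = 4.99e-05) in the double null colonies, which is 2.36 and 2.84 above the median change of all genes. Double null exceeded Bmi1 null by 0.33, with a 95% interval of -0.15 to 0.81 (adjusted p = 0.441).

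Sox9, a related factor of progenitor cells in many epithelia, had 3 probes, and the brightest stood at 0.41, 0.15, 0.27 and 0.27 in wild-type replicates 1, 3, 4 and 5, at 2.08, 2.04, 2.52 and 1.93 in Bmi1 null replicates 1 to 4, and at 1.84, 2.40, 2.70 and 2.23 in double null replicates 1 to 4. Every mutant colony lay above every wild-type colony. Sox9 rose by 1.86 ± 0.21 (SE, limma adjusted p = 5.18e-06) in the Bmi1 null and by 2.02 ± 0.21 (adjusted p = 2.40e-06) in the double null colonies, or 3.10 and 3.41 above the median of all genes. The other 2 probes rose by 1.76 and 1.82 in the Bmi1 null and by 2.33 and 2.34 in the double null colonies, so all 3 probes gave the same direction and call. Between the mutants the 3 probes differed by 0.15, 0.57 and 0.52, none of them called (limma adjusted p = 0.734, 0.252 and 0.221 in the fit of every probe).

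Isl1, a LIM homeodomain factor that in the incisor marks epithelium, stood at -2.64, -2.28, -2.54 and -1.93 in wild-type replicates 1, 3, 4 and 5, at -0.65, -0.68, -0.97 and -0.80 in Bmi1 null replicates 1 to 4, and at -0.59, -0.94, -1.26 and -0.60 in double null replicates 1 to 4, each value a mean of 10 spots. All mutant colonies lay above all wild-type ones, and the mutants overlapped over most of their range. Isl1 rose by 1.57 ± 0.22 (SE, limma adjusted p = 2.48e-05) in the Bmi1 null and by 1.50 ± 0.22 (adjusted p = 3.23e-05) in the double null colonies, or 2.81 and 2.90 above the median of all genes. The difference between the mutants was -0.07, with a 95% interval of -0.54 to 0.40.

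Tbx1, a T-box factor needed for normal incisor growth, stood at -1.62, -1.61, -1.76 and -1.54 in wild-type replicates 1, 3, 4 and 5, at -0.93, -0.73, -0.43 and -0.80 in Bmi1 null replicates 1 to 4, and at -0.57, -0.39, -1.05 and -0.76 in double null replicates 1 to 4. The wild-type colonies lay within 0.22 of each other and below every mutant colony. Tbx1 rose by 0.91 ± 0.19 (SE, limma adjusted p = 0.000659) in the Bmi1 null and by 0.94 ± 0.19 (adjusted p = 0.000489) in the double null colonies, the smallest rises among the 4 factors in the main scaling. With the slide as a fixed block the double null change was 0.57 and no longer called (adjusted p = 0.062). The difference between the mutants was 0.03, with a 95% interval of -0.38 to 0.44. Sox2, Sox9 and Isl1 were called higher in both mutants under each of 13 other settings of processing and model, by 0.69 to 2.95 in the Bmi1 null and 0.97 to 3.02 in the double null colonies, and with each array left out in turn.

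**Figure D2:**
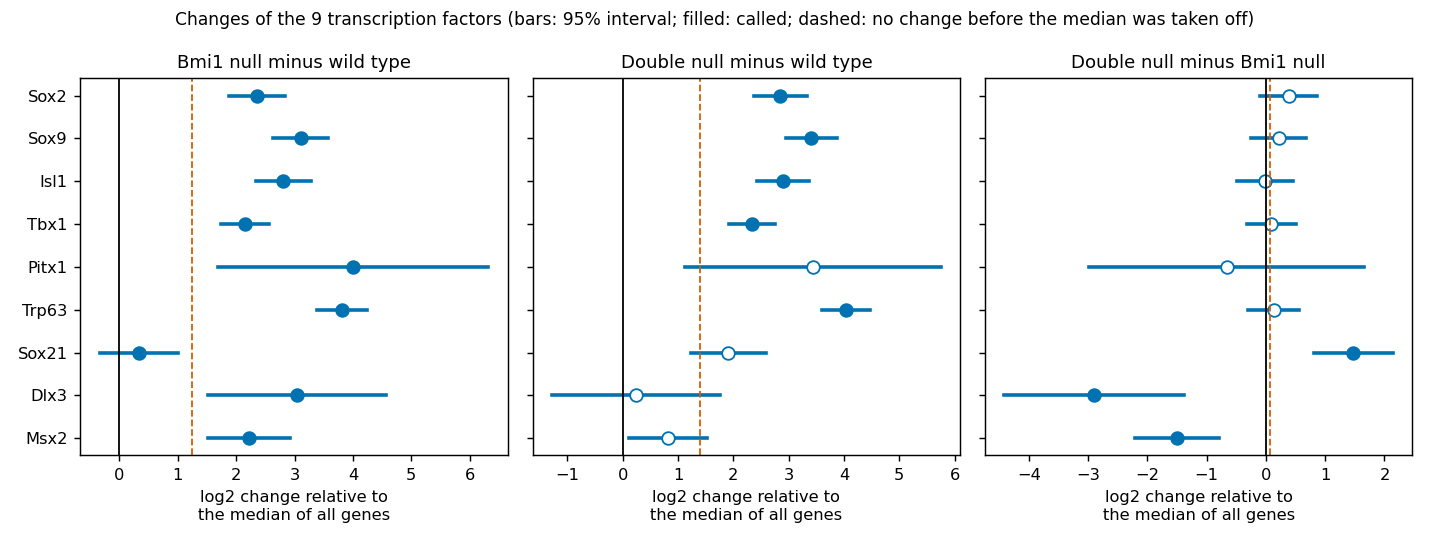
Log2 change of each factor relative to the median change of all genes (horizontal axis) in the 3 comparisons; points are limma estimates from 4 colonies per genotype, filled where called, and bars are 95% intervals. The dashed line marks no change before the median was taken off. All 9 factors lie above 0 in both comparisons with wild type, and Sox21, Dlx3 and Msx2 are the filled points between the mutants.

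Of the 9 factors, Trp63 had the smallest adjusted p against wild type and Pitx1 the widest scatter between colonies. Trp63 has 2 probes, and the brighter one stood at -0.58, -0.73, -0.45 and -0.19 in wild-type replicates 1, 3, 4 and 5, at 2.07, 1.85, 2.28 and 2.13 in Bmi1 null replicates 1 to 4, and at 1.81, 2.44, 2.12 and 2.24 in double null replicates 1 to 4. Wild-type colonies lay between -0.73 and -0.19 and all 8 mutant colonies between 1.81 and 2.44. Trp63 rose by 2.57 ± 0.20 (SE, limma adjusted p = 2.24e-07) in the Bmi1 null and by 2.64 ± 0.20 (adjusted p = 1.67e-07) in the double null colonies, which placed it at percentiles 98.3 and 98.8 of the changes of all genes. Between the mutants it differed by 0.07, with a 95% interval of -0.36 to 0.50.

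The second Trp63 probe gave a smaller change from the same arrays. It stood at -1.80, -1.18, -1.52 and -0.67 in wild-type replicates 1, 3, 4 and 5, at -0.56, -1.15, -0.94 and -0.34 in Bmi1 null replicates 1 to 4, and at -0.70, -0.08, -0.70 and 0.07 in double null replicates 1 to 4. The genotypes overlapped on this probe, with wild-type replicate 5 above 2 Bmi1 null colonies. In the fit of every probe it was higher by 0.54 ± 0.29 (SE) in Bmi1 null colonies, which was not called (limma adjusted p = 0.096), and rose by 0.94 ± 0.29 in double null colonies (adjusted p = 0.00869). p63 is made in isoforms with different starts and ends, and which of them each probe reads was not analysed here.

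**Figure D3:**
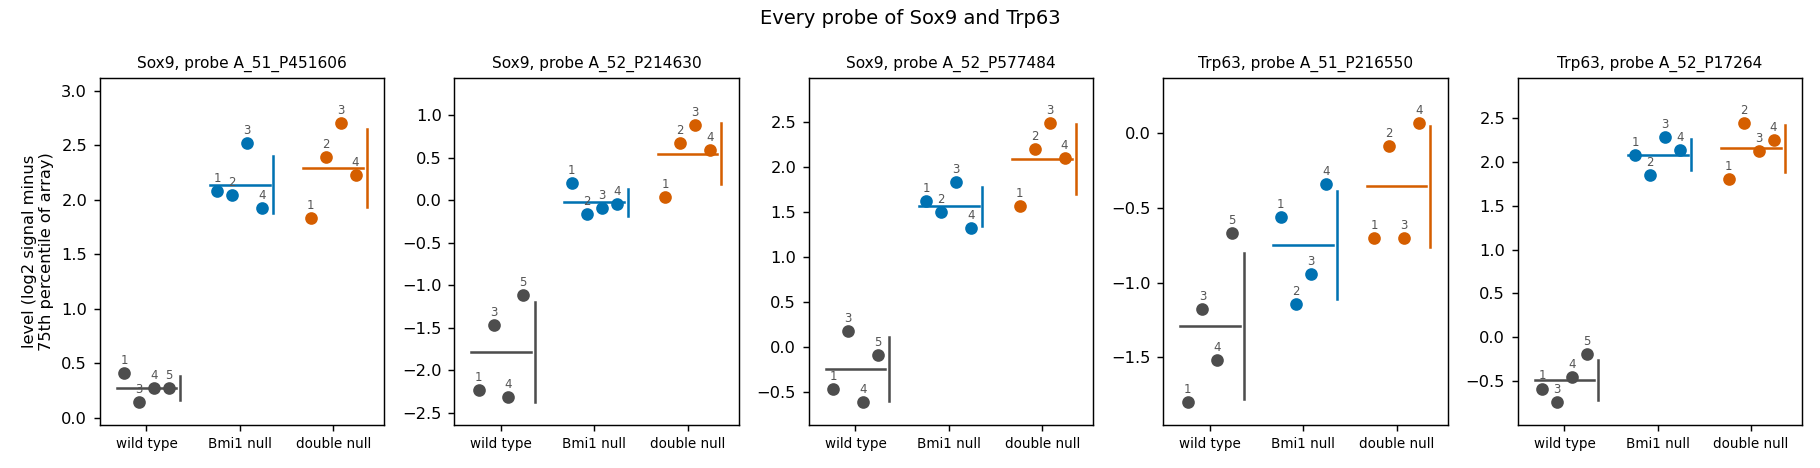
Level of every probe of Sox9 (3 probes) and Trp63 (2 probes) in the 12 colonies (log2 signal less the array's 75th percentile, vertical axis); points are colonies with replicate numbers, lines means and bars 1 SD (n = 4). The Sox9 probes separate both mutants from wild type alike, whereas the Trp63 probe A_51_P216550 overlaps between genotypes and probe A_52_P17264 does not.

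Genes that depend on p63 in basal epithelium were called higher more often than the 25.2% and 25.7% of all genes, without a test of that difference. Among 26 such genes measured, 20 were higher, 0 lower and 6 not called in Bmi1 null, and 22 higher, 0 lower and 4 not called in double null colonies. Their median change relative to all genes was 2.66 and 2.78, and 1.24 to 2.66 and 1.09 to 2.78 under 4 other scalings, which called 18 to 24 and 16 to 24 of them higher and 0 lower. General epithelial markers moved alike in the main scaling, with 12 and 14 of 15 higher, 0 lower and a median of 2.40 and 2.93 relative to all genes. Under the 4 other scalings 7 to 14 and 11 to 15 of them were higher and 0 to 1 lower in each mutant. Their median relative to all genes was then 0.70 to 2.40 and 1.27 to 2.92. Col17a1, a collagen of hemidesmosomes, was 4.40 above the median of all genes in Bmi1 null colonies, and Krt17, a keratin, 4.09 in double null colonies. Between the mutants 24 of the 26 were not called, 1 was higher and 1 lower, the latter being Col17a1, which fell by 1.43 ± 0.29 (SE, limma adjusted p = 0.011). Of the p53 family beside Trp63, Trp73 rose by 0.57 ± 0.20 in Bmi1 null colonies (adjusted p = 0.0161) and was not called in double null colonies (-0.02, adjusted p = 0.928).

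Pitx1 stood at -3.14, -2.66, -1.88 and -1.41 in wild-type replicates 1, 3, 4 and 5, at 0.98, 1.15, -0.07 and -0.10 in Bmi1 null replicates 1 to 4, and at -4.27, 0.85, -0.03 and 2.50 in double null replicates 1 to 4. The Bmi1 null colonies all lay above the wild-type ones. The double null colonies ran from the lowest of the 12 colonies, replicate 1, to the highest, replicate 4. Pitx1 rose by 2.76 ± 1.07 (SE, limma adjusted p = 0.0286) in Bmi1 null colonies, while its change of 2.04 ± 1.07 in double null colonies was not called (adjusted p = 0.0905). Without double null replicate 1 the double null change was 3.38 and called (adjusted p = 0.000149), and that array also had 1336 outlier spots, against 55 to 132 on the others. The 1 spot of the Pitx1 probe was not among them and was well above background there. The part of those outlier spots in its level was not tested. The Bmi1 null call ended with the slide as a fixed block (3.23, adjusted p = 0.058) and without wild-type replicate 1 (2.47), wild-type replicate 3 (2.63), Bmi1 null replicate 1 (2.60) or Bmi1 null replicate 2 (2.54). Between the mutants the difference was -0.73, with a 95% interval of -3.04 to 1.59, and its sign turned without double null replicate 1 (0.62).

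The spread of Pitx1 between colonies of 1 genotype was among the widest of all genes. The highest double null colony had 109 times the signal of the lowest relative to each array's 75th percentile, 39.8 times with the authors' deposited values, and 5.77 times without double null replicate 1. With all 4 colonies the SD of 2.89 lay at percentile 99.9 of the 31064 genes. In wild type the SD of 0.78 lay at percentile 98.6, and in Bmi1 null the SD of 0.67 at percentile 78.1. The gene whose levels followed Pitx1 most closely over the 12 arrays was Dhrs3, an enzyme that reduces retinaldehyde (Pearson r = 0.952), out of 12967 named genes measured on every array. Dhrs3 too was lowest in double null replicate 1 (-0.74) and highest in double null replicate 4 (1.97). This coefficient describes arrays that fall into 3 genotypes and is not a test.

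The 3 factors of the ameloblast lineage were the ones called between the mutants. Sox21, which acts against alternative fates in ameloblast precursors, stood at -0.85, -0.75, -1.07 and -1.19 in wild-type replicates 1, 3, 4 and 5, at -2.65, -1.66, -1.73 and -1.40 in Bmi1 null replicates 1 to 4, and at -0.82, -0.996, 0.11 and -0.08 in double null replicates 1 to 4. The Bmi1 null colonies were the lowest 4 of the 12, and the double null colonies overlapped wild type. Sox21 was higher in the double null than the Bmi1 null colonies by 1.41 ± 0.31 (SE, limma adjusted p = 0.0166), at percentile 98.8 of the changes of all genes. On the 2 slides that held both mutants, with 1 Bmi1 null array each and 1 and 2 double null arrays, the difference was 1.77 and 1.28. The call ended without double null replicate 3 (1.23, adjusted p = 0.052).

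Against wild type the direction of Sox21 in Bmi1 null colonies rested on the scaling: it fell by 0.90 ± 0.31 (SE, limma adjusted p = 0.0163) in the main scaling and by 0.76 with normexp background correction, but stood at 0.04, -0.15 and -0.03, not called, with median scaling, quantile normalization and the authors' deposited values. Relative to the median of all genes it was 0.34 higher, with a 95% interval of -0.33 to 1.01. The Bmi1 null call also ended without Bmi1 null replicate 1 (-0.64, adjusted p = 0.055). In double null colonies Sox21 was 0.52 ± 0.31 higher, not called (adjusted p = 0.135), and it was called under median scaling (1.52), quantile normalization (1.07) and with the authors' deposited values (1.08).

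Dlx3, a homeodomain factor needed for enamel and dentin, stood at -3.86, -3.97, -5.01 and -4.68 in wild-type replicates 1, 3, 4 and 5, at -2.60, -2.80, -2.53 and -2.38 in Bmi1 null replicates 1 to 4, and at -5.64, -6.81, -6.86 and -2.82 in double null replicates 1 to 4. It was well above background on 3 of 4 wild-type arrays, 4 of 4 Bmi1 null arrays and 1 of 4 double null arrays, the last being replicate 4. The Bmi1 null colonies were the highest 4, and double null replicate 4, at -2.82, lay beside the lowest of them at -2.80. Dlx3 fell by 2.96 ± 0.70 (SE, limma adjusted p = 0.0234) from Bmi1 null to double null colonies, a size that includes 3 arrays not well above background. For those 3 colonies alone the fall in the main scaling is given as a bound, at least 7.32-fold. The gap was smaller in the authors' deposited values. There these colonies stood at 5.36, 5.51 and 5.16, and Bmi1 null replicates 1 to 4 at 6.75, 6.69, 6.70 and 6.95. On the 2 slides that held both mutants, with 1 Bmi1 null array each and 1 and 2 double null arrays, the main scaling gave -4.06 and -1.70. The size moved with the processing: it was -1.09 in a fit of the authors' deposited values, still called (adjusted p = 0.026), and -0.33 with normexp correction, no longer called (adjusted p = 0.435). The call also ended without Bmi1 null replicate 3 (-2.94), Bmi1 null replicate 4 (-2.89), double null replicate 2 (-2.53) or double null replicate 3 (-2.51).

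Dlx3 rose by 1.80 ± 0.70 (SE, limma adjusted p = 0.029) in Bmi1 null against wild-type colonies, and its change of -1.15 ± 0.70 in double null colonies was not called (adjusted p = 0.138). The rise was not called with normexp correction (0.35) or with the slide as a fixed block (1.41), nor without wild-type replicate 4 (1.59), wild-type replicate 5 (1.70) or Bmi1 null replicates 1, 3 or 4 (1.81, 1.79 and 1.74). Without double null replicate 4, none of the remaining 3 arrays was well above background. In the main scaling Dlx3 was lower there than in wild type, with a bound of 2.10-fold. That bound sets the 3 arrays at the lowest signal well above background. Its wild-type mean includes replicate 4, itself not well above background. A limma fit of the measured values gave a change of -2.06 for Dlx3 (adjusted p = 0.000195). In the authors' deposited values it was not lower. Those 3 colonies stood at 5.36, 5.51 and 5.16, against 5.27, 5.37, 5.08 and 5.14 in wild-type replicates 1, 3, 4 and 5. With all 4 colonies the sign rested on the scaling and was positive with quantile normalization (1.81), normexp correction (0.03) and the authors' deposited values (0.47).

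Msx2, a homeodomain repressor with a role in late ameloblasts, stood at -3.16, -3.23, -3.22 and -3.56 in wild-type replicates 1, 3, 4 and 5, at -2.49, -2.31, -2.39 and -2.07 in Bmi1 null replicates 1 to 4, and at -4.18, -4.22, -4.43 and -2.68 in double null replicates 1 to 4, each value a mean of 10 spots. All arrays were well above background on this probe. The Bmi1 null colonies were the highest 4, 3 double null colonies were the lowest 3, and double null replicate 4 lay between the Bmi1 null and the wild-type colonies. Msx2 fell by 1.56 ± 0.32 (SE, limma adjusted p = 0.0131) from Bmi1 null to double null colonies, at percentile 1.93 of the changes of all genes. On the 2 slides that held both mutants, with 1 Bmi1 null array each and 1 and 2 double null arrays, the difference was -2.12 and -1.04. It was -0.77 in a fit of the authors' deposited values, still called (adjusted p = 0.034), and -0.37 with normexp correction, not called (adjusted p = 0.319). The 10 spots of the probe had a median SD of 0.14 within an array, and the 4 double null colonies an SD of 0.80.

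Msx2 rose by 0.98 ± 0.32 (SE, limma adjusted p = 0.0135) in Bmi1 null against wild-type colonies, or 2.22 above the median of all genes. That call ended with normexp correction (0.23) and with the slide as a fixed block (0.80). In double null colonies the change was -0.58 ± 0.32, not called (adjusted p = 0.109), and it was positive with median scaling (0.42), quantile normalization (1.87) and the authors' deposited values (0.69). Without double null replicate 4 it was -0.98 in the main scaling and called (limma adjusted p = 0.000508). In the authors' deposited values double null replicates 1 to 3 were instead higher than wild type. They stood at 5.97, 6.33 and 6.05, against 5.62, 5.83, 5.61 and 5.54 in wild-type replicates 1, 3, 4 and 5.

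**Figure D4:**
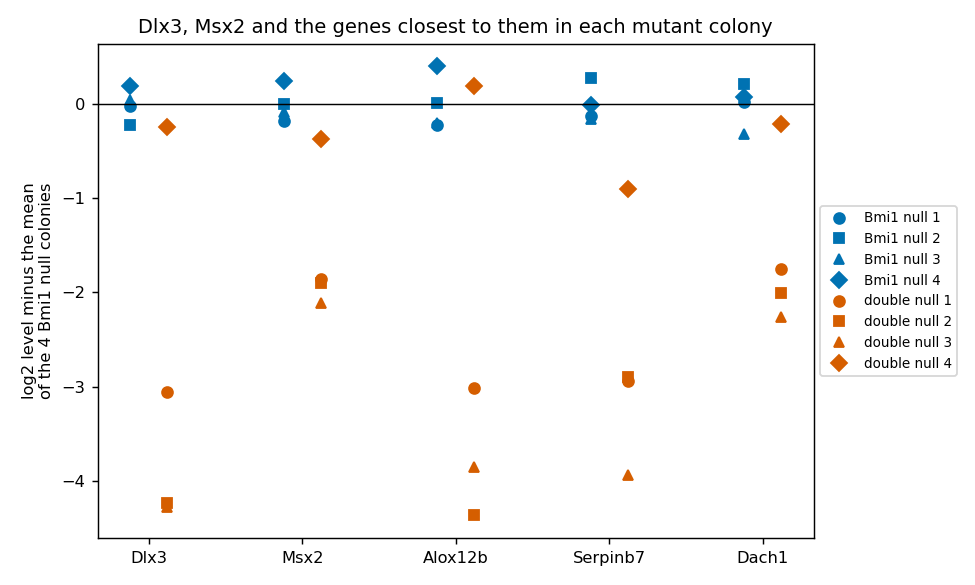
Log2 level minus the mean of the 4 Bmi1 null colonies (vertical axis) for Dlx3, Msx2 and the genes whose levels followed them most closely, in the 8 mutant colonies; blue symbols are Bmi1 null and orange symbols double null colonies, with a shape for each replicate number. Double null replicates 1, 2 and 3 lie well below the Bmi1 null colonies for all 5 genes, and double null replicate 4 lies close to them.

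Dlx3 and Msx2 followed each other closely over the 12 arrays (Pearson r = 0.967), and the genes nearest to them split the double null colonies alike. Alox12b, a lipoxygenase of the epidermal barrier, was the nearest to Dlx3 (r = 0.974) and stood at 1.45, 0.09, 0.61 and 4.66 in double null replicates 1 to 4, against 4.25 to 4.87 in the Bmi1 null and 2.59 to 2.90 in wild-type colonies. Serpinb7, a protease inhibitor of keratinocytes (r = 0.975), and Dach1, a transcriptional repressor (r = 0.971), were nearest to Msx2. From Bmi1 null to double null colonies Alox12b fell by 2.76 (limma adjusted p = 0.0386), Serpinb7 by 2.67 (adjusted p = 0.00646) and Dach1 by 1.56 (adjusted p = 0.0233). The first 2 were called lower under all 5 scalings and Dach1 under 3 of them. Nearest to Sox21 were Tgif2, a homeodomain repressor (r = 0.921), and Dennd2a, a regulator of membrane traffic (r = 0.884), which rose by 0.74 (adjusted p = 0.0271) and 1.29 (adjusted p = 0.0116) from Bmi1 null to double null colonies. These genes were picked for their likeness, so their changes are no independent evidence.

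The factors with a plain step between wild type and both mutants had followers with r of 0.973 or more. The nearest to Sox2 were Ptpa and Psma5 (r = 0.978 and 0.976), to Sox9 Rwdd1 and Fosl2 (0.992 and 0.988), to Isl1 Sft2d2 and Nsrp1 (0.991 and 0.987), to Tbx1 Mbip and Slc25a11 (0.974 and 0.973) and to Trp63 Flrt2 and Bmpr2 (0.996 and 0.995). Fosl2 is a subunit of AP-1, Psma5 a subunit of the proteasome and Bmpr2 a receptor for bone morphogenetic proteins. The arrays fall into wild type and mutants, so these coefficients include a shared step. With the mean of each genotype taken off, r for these pairs was still 0.797 to 0.912. These genes too were picked for their likeness over the same arrays, so the coefficients are no independent evidence. What the colonies share within a genotype was not tested.

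**Figure D5:**
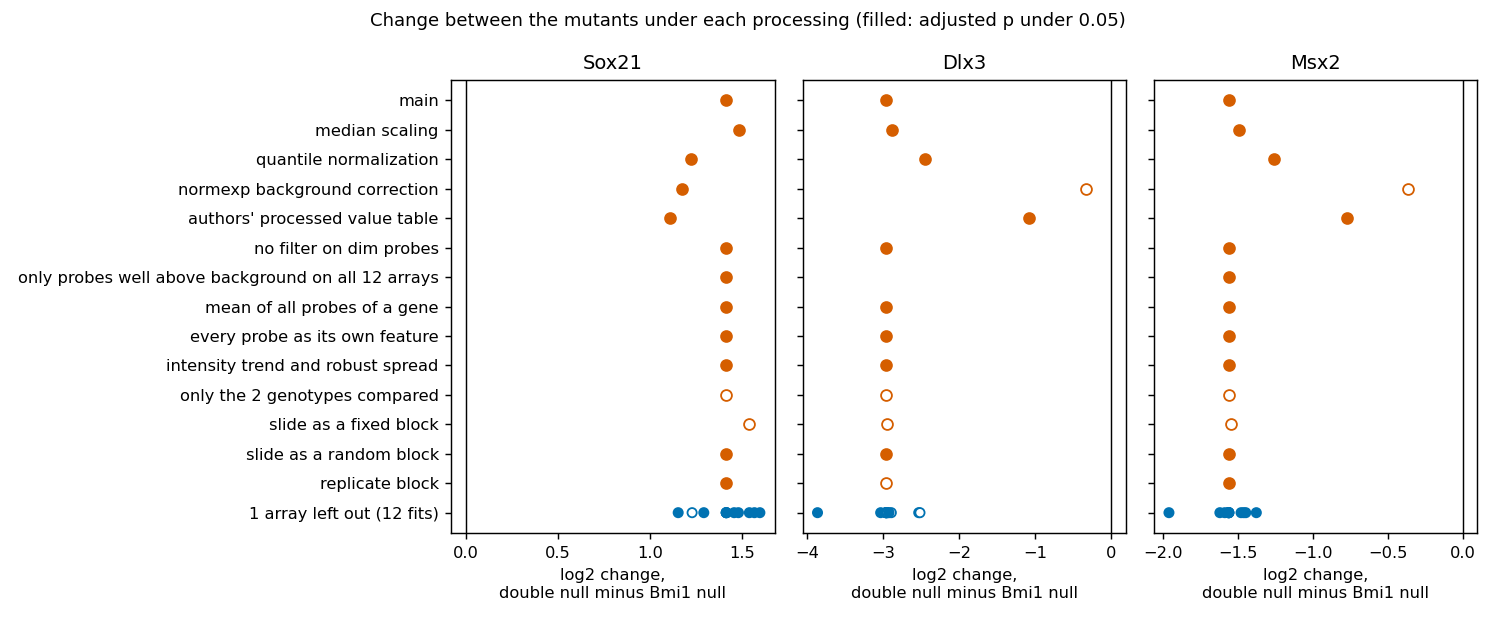
Log2 change of Sox21, Dlx3 and Msx2 from Bmi1 null to double null colonies (horizontal axis) under each processing or model setting and with each of the 12 arrays left out (bottom line); filled points are called at an adjusted p under 0.05. Sox21 stays between 1.11 and 1.60 throughout, whereas Dlx3 and Msx2 shrink to -0.33 and -0.37 with normexp background correction.

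The calls between the mutants also rested on the model. With only the 8 mutant arrays in the limma fit, 0 of the 9 factors were called, though the same 3 had an unadjusted p under 0.05, with adjusted p-values of 0.072 for Sox21, 0.088 for Dlx3 and 0.065 for Msx2. With the slide as a fixed block 0 were called and the same 3 had an unadjusted p under 0.05. Other settings, the scalings and the leave-one-out fits among them, called 1 to 3.

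Other transcription factors of the dental epithelium went both ways against wild type. Among 25 such genes measured, 7 were higher, 10 lower and 8 not called in Bmi1 null, and 7 higher, 9 lower and 9 not called in double null colonies. Their median change was 1.04 and 1.27 above that of all genes, and 0.01 to 1.04 and 0.31 to 1.27 under the 4 other scalings. Over all genes 25.2% and 25.7% were higher and 58.3% and 59.7% lower. The split turned with median scaling (13 higher and 6 lower, 14 and 6), with quantile normalization in the Bmi1 null (9 and 8) and with the authors' deposited values in the double null colonies (11 and 9). Nfib, a nuclear factor I protein, stood 3.57 and 4.37 above the median of all genes, Runx1, a runt-domain factor, 3.35 and 3.37. Between the mutants 1 of the 25 was called: Etv5, an ETS factor downstream of FGF signalling, rose by 0.98 ± 0.19 (SE, limma adjusted p = 0.00844) in double null colonies.

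Of 16 transcription factors of the dental mesenchyme, 0 were higher and 12 lower in Bmi1 null, and 1 higher and 11 lower in double null colonies, where 58.3% and 59.7% of all genes were lower. Under the 4 other scalings 0 to 3 and 1 to 4 were higher and 7 to 12 and 7 to 10 lower. Barx1, a molar mesenchyme factor, was lower in both mutants and well above background on 0 of 4 Bmi1 null and 1 of 4 double null arrays. Pax9, a paired-box factor, rose by 1.26 ± 0.22 (SE, limma adjusted p = 0.00554) from Bmi1 null to double null colonies, the 1 call of this list between the mutants. Mesenchymal and fibroblast markers had 2 higher and 8 lower of 16 in Bmi1 null colonies and 2 higher and 7 lower in double null ones, with a summed level of 5.23 to 5.72 in wild type, 5.89 to 6.48 in the Bmi1 null and 6.19 to 7.38 in the double null colonies.

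Stem cell and niche markers of the incisor were split against wild type and higher in part between the mutants. Of 14 tested, 5 were higher and 6 lower in Bmi1 null, and 7 higher and 4 lower in double null colonies. The lower ones include the targeted gene Bmi1 itself in both mutants, a result set by the genotype. Over all genes 25.2% and 25.7% were higher and 58.3% and 59.7% lower against wild type. Between the mutants 2.81% were higher and 4.62% lower in double null colonies. From Bmi1 null to double null colonies 3 were higher and 0 lower: Igfbp5, a binding protein for insulin-like growth factors, rose by 4.92 ± 0.60 (SE, limma adjusted p = 0.00076), Lrig1, a regulator of growth factor receptors, by 1.93 ± 0.42 (adjusted p = 0.0156) and Lgr5, an R-spondin receptor, by 1.93 ± 0.41 (adjusted p = 0.0149). All 3 were called higher under the 5 scalings (with the authors' deposited values 1 other gene of the list was lower), as were the adhesion genes Cldn7, Epcam and Cldn1, which rose by 3.59, 1.73 and 1.41 among the 15 general epithelial markers. Those epithelial genes thus moved in the comparison in which Sox21 was higher and Dlx3 and Msx2 lower, and their part in it was not tested.

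Of 13 enamel genes, 0 were called between the mutants with limma, where 7.43% of all genes were, so a count this low says little. Against wild type 7 were lower in each mutant, a share near that of all genes, and 2 and 3 were higher. At an unadjusted p under 0.05 there were 3 between the mutants, and 1 was called lower both with normexp correction and with the authors' deposited values. Enam and Ambn, which encode the enamel matrix proteins enamelin and ameloblastin, were well above background on 4 of 4 wild-type arrays each. That held on 0 of 4 Bmi1 null arrays each and on 1 of 4 and 0 of 4 double null arrays. In wild type 98.4% of olfactory receptor spots were well above background too, so passing that mark there says little about expression. Under the 5 scalings the Bmi1 null change ran from -5.93 to -1.40 for Enam and from -3.94 to -0.33 for Ambn. In double null colonies it ran from -4.81 to -1.34 and from -4.69 to -0.43.

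Relatives of the 9 factors went both ways against wild type, where most called genes were lower. Over all genes 25.2% were higher and 58.3% lower in Bmi1 null, and 25.7% higher and 59.7% lower in double null colonies. Between the mutants 7.43% of all genes were called. Of 16 SOX genes, 4 were higher and 9 lower in Bmi1 null, and 4 higher and 6 lower in double null colonies. Sox13 rose by 2.21 ± 0.38 and 2.27 ± 0.38 (SE) and Sox5 fell by 5.35 ± 0.42 and 4.75 ± 0.42, both called under all 5 scalings but with sizes that ran from 0.73 to 4.74 for Sox13 and from -5.35 to -1.26 for Sox5. Sox21 was the 1 SOX gene called between the mutants. Of 17 T-box genes 2 were higher in each mutant, Tbx1 and Mga, and 13 and 15 were lower. Of 12 LIM homeobox genes Isl1 was the 1 that was higher in each mutant, and 10 and 11 were lower. Among the 6 Dlx genes Dlx3 alone was called between the mutants, and among the 6 Msx and Pitx genes Msx2 alone. These counts are of the main scaling. Under the other 4, 4 to 6 and 4 to 7 SOX genes were higher and 5 to 10 and 4 to 6 lower, 1 to 2 LIM homeobox and 2 to 3 T-box genes were higher in each mutant, the number of lower LIM homeobox genes was 5 to 10 and 5 to 8, and the number of lower T-box genes was 8 to 15 in the Bmi1 null and 9 to 10 in the double null colonies.

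The spread between colonies of a genotype differed among the 9 factors. In Bmi1 null colonies the SD of Sox2, Isl1, Trp63, Dlx3, Msx2 and Tbx1 was 0.14 to 0.21, below the median of 0.41 over all genes. In double null colonies Sox2, Tbx1, Trp63, Isl1 and Sox9 had an SD of 0.22 to 0.36, below the median of 0.40, while Dlx3 reached 1.89, at percentile 99.0, and Msx2 0.80, at percentile 82.7. The arrays lay on 5 slides, of which 3 held more than 1 genotype. Of these, 1 held 2 Bmi1 null and 2 wild-type arrays, and another held 1 array of each genotype. Within the 2 slides that held Bmi1 null and wild-type arrays, Sox2 differed by 1.34 and 1.06, Sox9 by 1.66 and 1.89, Isl1 by 1.86 and 1.60, Tbx1 by 0.83 and 0.88, Pitx1 by 2.95 and 3.81, Trp63 by 2.62 and 2.58, Sox21 by -1.07 and -0.91, Dlx3 by 1.95 and 1.17 and Msx2 by 0.91 and 0.93. On the 1 slide that held a double null and a wild-type array, 1 of each, Sox2, Sox9, Isl1, Tbx1, Pitx1 and Trp63 differed by 1.51, 2.56, 1.02, 0.56, 2.64 and 2.85, Sox21 by 0.86, Dlx3 by -2.89 and Msx2 by -1.20. Each direction on these slides was that of the fit over all 12 arrays.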

How the data were processed

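RNA of 12 colonies was amplified, labelled with Cy3 and hybridised to 12 one-colour arrays. The deposited spot intensities were extracted and background-subtracted with Agilent Feature Extraction, per the file headers, and were not scaled between arrays. A second table of the authors' deposited log2 values (column medians 7.21 to 7.24) followed the log2 spot medians of the same arrays (r = 0.992 to 1.00); the sources used here do not give its method. Probes were named by accession through RefSeq: 24844 had 1 symbol, 0 several and 16330 none.

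Control spots and outlier spots were left out, spots of a probe averaged, and log2 signals reduced by the array's 75th percentile. Probes well above background on at least 3 of 4 arrays of a genotype were kept (39338 of 41174), and the brightest stood for its gene. The main model was limma 3.58.1 (R 4.3.3) over all 12 arrays with a mean per genotype and Benjamini-Hochberg adjustment over 31064 genes. It was tested on simulated data in which few genes changed. The comparisons with wild type differ from that setting, so the simulation does not cover them. The threshold for a call was an adjusted p under 0.05. Where all arrays of a genotype were not well above background, "at least N-fold" sets the brighter mean against the lowest signal well above background. The number of arrays limits the precision. No 2 arrays held identical values. Alternatives were other scalings, filters, probe rules and models, the slide or replicate number as a block, and each array left out. The range of Pitx1 without double null replicate 1 and the bounds for Dlx3 without double null replicate 4 were added after seeing the data. The normexp alternative used the spot median signal, also chosen after seeing the data, because the planned mean signal column is not among those used here.

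The factors and gene lists were chosen with earlier results of these data known. Named genes are the 9 factors, Bmi1, Cdkn2a, up to 3 called genes per list and comparison with the largest change relative to all genes, and the 2 named genes most correlated with each factor. Some genes that this rule selects are not reported here.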

Additional observations from a re-analysis of the deposited data

Results flagged for a closer look

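In 36 groups of 4 colonies (9 factors, 12 probes, 3 genotypes), the highest or lowest colony was tested for its distance from the others, a rule that chance meets in about 1 group of 20, and 2 groups met it. Sox2 stood at -0.72 in double null replicate 2, below the other 3 double null colonies, all at -0.28. Msx2 stood at -2.68 in double null replicate 4, above the other 3 at -4.18, -4.22 and -4.43. Dlx3 was also highest in that colony, at -2.82.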

How the results depend on the processing

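The count of factors called in Bmi1 null against wild-type colonies was 9, and 6 to 9 under all alternatives. In double null against wild-type colonies it was 5, but 9 with quantile normalization and 8 with the authors' deposited values, and 5 to 7 with an array left out. Between the mutants it was 3, but 1 with normexp background correction, 0 with only the 2 genotypes in the fit, 0 with the slide as a fixed block, and 1 to 3 with an array left out. Same-numbered colonies of different genotypes deviated from their means with correlations of -0.14 to 0.22, so the numbers do not pair them. With a replicate block the counts were 7, 5 and 2. That block ended the calls of Dlx3 and Pitx1 in Bmi1 null against wild-type colonies and of Dlx3 between the mutants. Directions turned for Sox21 in Bmi1 null against wild-type colonies with median scaling (0.035), and in double null against wild-type colonies for Dlx3 with quantile normalization (1.81), normexp correction (0.026) and the authors' deposited values (0.47) and for Msx2 with median scaling (0.42), quantile normalization (1.87) and the authors' deposited values (0.69). Between the mutants, factors not called changed sign: Isl1 with normexp correction (0.015), Tbx1 with the slide as a fixed block (-0.27), and Trp63 with normexp correction (-0.032) and the slide as a fixed block (-0.011). With an array left out, Isl1 ran from -0.15 to 0.069, Tbx1 from -0.070 to 0.15, Pitx1 from -1.64 to 0.62 and Trp63 from -0.026 to 0.19. The cause was not tested. Dlx3 has no value when a probe must be well above background on all 12 arrays, and its level is limited by signal over background on 3 double null arrays.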
